A study of Sus scrofa with 8 samples.

Results

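The porcine CYP2C and CYP3A cytochromes P450 were examined in the liver of 8 pigs with 1 Affymetrix porcine array for each animal. Of the animals, 4 were Korean native pigs (KNP) aged 7 months and 4 were Yorkshire pigs (YS) aged 6 months, and the labels call those of a breed biological replicates. The members were the 8 genes CYP2C33, CYP2C36, CYP2C42, CYP2C49, CYP3A22, CYP3A29, CYP3A39 and CYP3A46, out of 6765 gene symbols on the array. They were taken as every probe set whose array annotation gives exactly 1 of these symbols, which found 11 of the 23999 probe sets that are not controls, 6 for CYP2C and 5 for CYP3A. A further probe set that lists CYP2C49, CYP2C36, CYP2C34 and CYP2C32 together was set aside. The labels name no treatment or genetic change, the sample was the tip of the largest liver lobe, and neither sex nor litter is given in the sources used here. The question is how far liver transcripts differ between the breeds. Since the breeds also differ in age, breed and age cannot be told apart in any difference below, and in whole tissue fewer cells of a type cannot be told apart from less RNA per cell.

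Cytochromes P450 of the CYP2C and CYP3A subfamilies are haem enzymes of the hepatocyte's endoplasmic reticulum that oxidize drugs, steroids and other fat-soluble compounds. They receive electrons from the reductase POR and from cytochrome b5, and their genes are known to be induced through the nuclear receptors PXR (NR1I2) and CAR (NR1I3), which pair with RXR. Members of a subfamily are close in sequence, so a probe set can take up signal from a neighbour. In the Sscrofa11.1 gene table, CYP3A22, CYP3A46 and CYP3A29 lie side by side on chromosome 3, and the 4 CYP2C members lie on chromosome 14. CYP3A39 has no entry of its own in that table, where its symbol is listed as a synonym of CYP3A46, while the array carries separate probe sets for both. The values below are intensities on a linear scale, and since probes differ in how brightly they bind, no level of 1 probe set is compared with that of another.

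The labelled tissue was checked with 8 hepatocyte markers (ALB, APOA1, TTR, TF, SERPINA1, AHSG, FGB and APOH), whose mean log2 intensity ran between 15.17 and 15.40 in KNP and between 15.87 and 15.98 in YS. By limma 7 of the 8 fell in KNP on the deposited scale (0 after quantile normalization, where 4 of the 8 had a lower mean), and on the deposited scale all 8 had values without overlap between the breeds. Their median breed difference was −0.60 on the deposited scale and −0.0060 after quantile normalization, which gives every array the same distribution of values. Bright probe sets in general were lower in KNP on the deposited scale: the median difference was −0.39 over 167 probe sets whose log2 intensity averaged 14 to 15 and −0.58 over the 68 above 15, and −0.04 and −0.03 after quantile normalization. Of the 11 member probe sets 6 lie in these ranges, so each bright member is given on both scales. The actin control probes gave a 3' over 5' ratio, a measure of RNA integrity, between 2.68 and 6.45 in KNP and between 8.39 and 11.8 in YS, without overlap, and its part in the member differences was not tested. The Kupffer cell markers (7 of 11 tested) had a mean log2 intensity of 11.5 to 11.8 in KNP and 10.8 to 11.7 in YS, and the endothelial markers (5 of 9) of 8.98 to 9.54 and 8.80 to 9.25, so both overlapped between the breeds. Markers of hepatocytes around the central vein (6 of 10 tested, CYP2E1 among them), where P450 enzymes are known to be strong, ran from 9.82 to 11.5 in KNP, with replicate 2 lowest, and from 10.7 to 11.3 in YS, with 0 called by limma and 2 at an unadjusted p under 0.05. Periportal markers (6 of 9) lay between 12.98 and 13.71 in KNP and between 12.32 and 13.13 in YS. Of these 3 had a higher and 3 a lower mean in KNP, with a median difference of −0.10. SDS among them rose by 4.07 (limma adjusted p = 0.0336), and after quantile normalization it did not pass (4.08, limma adjusted p = 0.0660). The levels of the stellate, cholangiocyte, T and NK cell, B cell, neutrophil and erythroid lists overlapped between the breeds as well. No marker with a probe set read 0, and the part of these cell types in the member differences was not tested. KNP replicate 2 stood apart from the other 7 animals in several P450 genes, described below, and member results that rest on it are given with and without it.

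Across the 8 member genes 1 fell in KNP, none rose and 7 did not pass the test, which was limma's moderated test with Benjamini-Hochberg adjustment over 14399 probe sets and a threshold of 0.05. Of all probe sets tested, 1.03% passed in either direction and 0.611% were called lower in KNP and 0.424% higher. The mean log2 values of 5 member genes were lower in KNP and those of 3 higher, with a median difference of −0.33 on the log2 scale against −0.0086 over all probe sets tested. The latter covers probe sets of every brightness, while the median was −0.39 and −0.58 in the bright ranges that hold 6 member probe sets. After quantile normalization the bright members CYP2C33, CYP2C49 and CYP3A46 showed −0.03, −0.07 and −0.002, CYP3A39 −0.56 and CYP3A29 0.59. Of 10 member probe sets tested 3 did not overlap between the breeds, where 9.68% of all tested probe sets did not. They were both probe sets of CYP3A39 and that of CYP2C33, all of them bright. After quantile normalization the probe sets without overlap were CYP3A39 S1_at, lower in KNP, and CYP3A29, higher in KNP, where 8.82% of all tested probe sets did not overlap. The second CYP2C36 probe set was too dim to be tested.

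**Figure D1:**
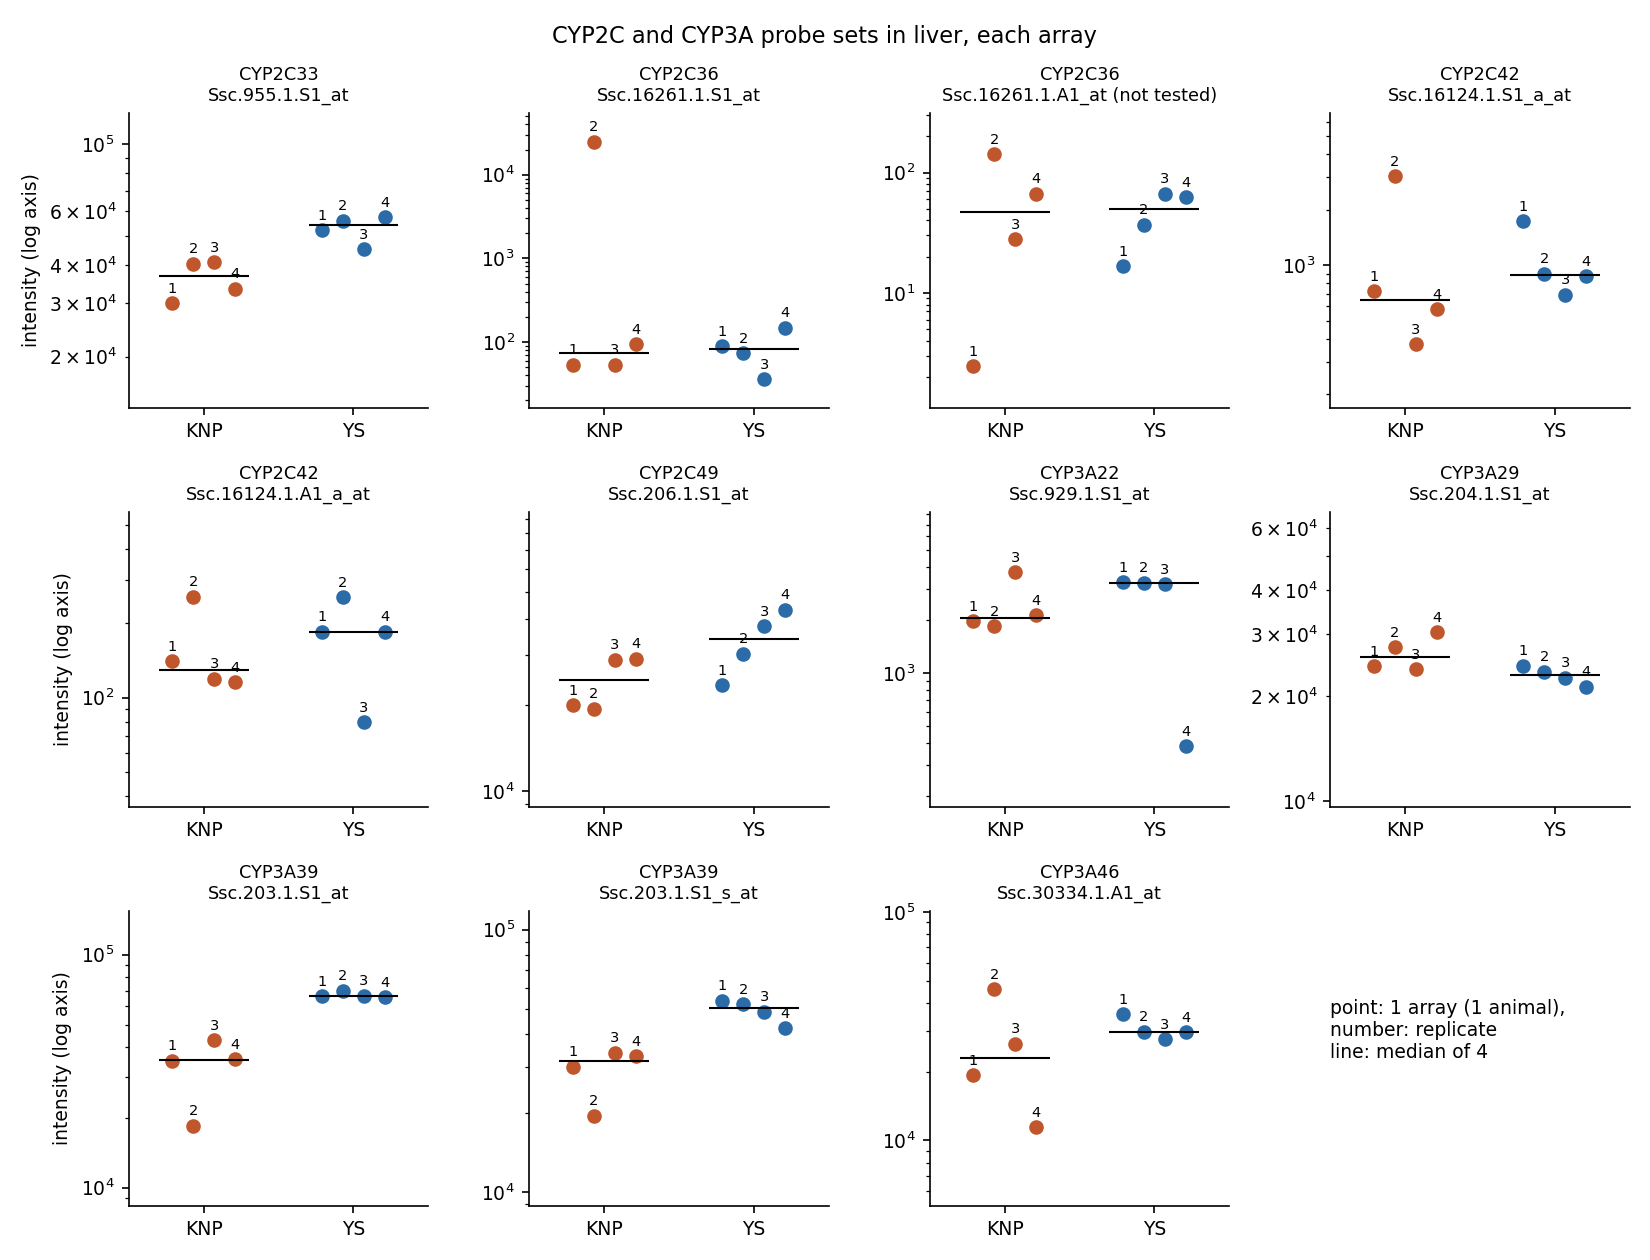
Intensity (log axis) of the 11 CYP2C and CYP3A probe sets on each of the 8 arrays, 1 panel per probe set, with KNP in orange, YS in blue, the replicate number above each point and a line at the median of 4 animals. All YS points of CYP3A39 lie above all KNP points. For S1_at they also lie above the highest value of any probe set on the KNP arrays, 50730 to 60066. CYP2C36 is at 24858 in KNP replicate 2 and at most 149 elsewhere, and CYP3A22 is at 382 in YS replicate 4.

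CYP3A39, a drug-oxidizing member of the CYP3A subfamily, was the member that fell. Its S1_at probe set read 35087, 18424, 42854 and 35627 in KNP replicates 1 to 4 and 66405, 70014, 66582 and 65831 in YS replicates 1 to 4. The breeds did not overlap, the YS animals lay within 1.06-fold of each other, and the KNP animals were spread 2.33-fold with replicate 2 lowest. The brightest probe set of an array read 50730 to 60066 in KNP and 83646 to 95919 in YS. All 4 YS values of CYP3A39 lay above every KNP maximum, so the lack of overlap on the deposited scale says little by itself. After quantile normalization the breeds did not overlap either. The mean was 32998 ± 10341 in KNP and 67208 ± 1898 in YS (SD, n = 4 per breed), a log2 difference of −1.09 (SE 0.22, 95% interval −1.57 to −0.62, limma adjusted p = 0.0440). Without KNP replicate 2 the difference was −0.83 and the call was kept (limma adjusted p = 0.0175), with 0.757% of all probe sets called in that fit. Leaving out another animal ended the call in 6 of 7 cases, with an adjusted p of 0.0658 to 0.124, while the difference stayed between −1.07 and −1.24. After quantile normalization it was −0.56 (limma adjusted p = 0.310), with a 95% interval of −1.06 to −0.055, and 0.0903% of all probe sets passed on that scale. By its place among the 23999 probe sets of each array, which no scaling of an array changes, CYP3A39 ranked 32nd, 167th, 24th and 51st from the brightest on the KNP arrays and 10th, 9th, 18th and 16th on the YS arrays.

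The other CYP3A39 probe set, S1_s_at, carries the suffix that Affymetrix gives to probes shared between transcripts. It read 30042, 19495, 33941 and 32855 in KNP and 53483, 51912, 48587 and 42001 in YS. KNP replicate 2 was again the lowest animal, and the breeds again did not overlap. The difference was −0.78 (SE 0.17, limma adjusted p = 0.0694), and −0.31 after quantile normalization, where the breeds overlapped. The mean of both probe sets gave −0.94 (limma adjusted p = 0.0485).

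CYP3A29, a pig cytochrome often set beside human CYP3A4 for its substrates, had the narrowest spread of the CYP3A members within KNP and did not fall with CYP3A39. It read 24266, 27498, 23848 and 30386 in KNP and 24380, 23406, 22541 and 21249 in YS. The KNP mean was the higher one, 26500 ± 3062 against 22894 ± 1329, and the breeds overlapped. The difference was 0.21 (SE 0.12, 95% interval −0.06 to 0.47, limma adjusted p = 0.451). After quantile normalization it was 0.59 (95% interval 0.37 to 0.82, limma adjusted p = 0.0660), still short of the threshold, with all 4 KNP values above all 4 YS values. Of all tested probe sets 8.82% showed no overlap on that scale. In ranks, CYP3A29 stood at 96, 72, 107 and 80 on the KNP arrays and at 167, 164, 173 and 193 on the YS arrays.

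CYP3A46, a further member of the subfamily, differed more between KNP animals than between breeds. It read 19280, 45859, 26543 and 11402 in KNP, a 4.02-fold spread with replicate 2 highest and replicate 4 lowest, and 35584, 29940, 27737 and 29791 in YS, a 1.28-fold spread. The YS values lay inside the KNP range. The difference was −0.43 (SE 0.33, 95% interval −1.15 to 0.29, limma adjusted p = 0.573), −0.77 without KNP replicate 2 (limma adjusted p = 0.158) and −0.002 after quantile normalization (limma adjusted p = 0.999). KNP replicate 2 was the highest of the 8 animals in CYP3A46 and the lowest in CYP3A39, though the gene table gives the 2 symbols as 1 gene.

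CYP3A22, also of the chromosome 3 cluster, read 1970, 1850, 3753 and 2133 in KNP and 3292, 3272, 3213 and 382 in YS. The first 3 YS animals lay close together, and YS replicate 4 stood below all other animals. With it the difference was 0.28 (SE 0.60, 95% interval −1.04 to 1.59, limma adjusted p = 0.863), and without it −0.48 (limma adjusted p = 0.449), so that 1 animal set the direction. The mean intensity was 2426 ± 892 in KNP and 2540 ± 1439 in YS (SD, n = 4 per breed), so the linear means had the opposite order to the log2 means, and the YS mean was 3259 ± 41.1 without replicate 4. By small margins, YS replicate 4 was the lowest of the 8 animals in CYP3A29, at 21249 against 22541 to 30386 in the others. It was likewise the lowest YS animal in CYP3A39, at 65831 against 66405 in YS replicate 1. Its CYP3A46 value of 29791 lay inside the YS range, and it was the highest of the 8 animals in CYP2C33 (57462) and CYP2C49 (43182).

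CYP2C33, a drug-oxidizing member of the CYP2C subfamily, read 29904, 40407, 40863 and 33495 in KNP and 52150, 55973, 45071 and 57462 in YS. The breeds did not overlap. The mean was 36167 ± 5367 in KNP and 52664 ± 5534 in YS, a difference of −0.55 (SE 0.14, 95% interval −0.85 to −0.25, limma adjusted p = 0.0926) that did not pass. It was close to the median of the probe sets of like brightness, −0.58, and −0.03 after quantile normalization (95% interval −0.35 to 0.29), where the breeds overlapped. In ranks it stood at 15 to 66 on KNP arrays and 29 to 57 on YS arrays.

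CYP2C49 read 20006, 19419, 28827 and 29127 in KNP and 23514, 30348, 37822 and 43182 in YS. Replicates 1 and 2 of KNP and replicate 1 of YS were the lowest animals, and the breeds overlapped. The difference was −0.46 (SE 0.21, 95% interval −0.92 to −0.002, limma adjusted p = 0.327) and −0.07 after quantile normalization (limma adjusted p = 0.909). Its values were spread 1.84-fold within YS and 1.5-fold within KNP.

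CYP2C42 varied widely between animals. Its S1_a_at probe set read 722, 3036, 372 and 576 in KNP and 1736, 898, 691 and 870 in YS. KNP replicate 2 was the highest of the 8 animals and YS replicate 1 the next. The difference was −0.24 (SE 0.53, 95% interval −1.41 to 0.94, limma adjusted p = 0.868), and −0.85 without KNP replicate 2 (limma adjusted p = 0.225). It turned to 0.14 without KNP replicate 3 and to 0.03 without YS replicate 1. The other probe set, A1_a_at, read 140, 256, 119 and 116 in KNP and 185, 255, 79.8 and 185 in YS, near the array medians of 152 to 179, with a difference of −0.12 (limma adjusted p = 0.908) and of −0.35 without KNP replicate 2.

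CYP2C36 was at the level of dim probe sets in 7 animals and among the brightest in the other. Its S1_at probe set read 53.4, 24858, 53.7 and 94.5 in KNP and 89.6, 73.2, 36.1 and 149 in YS. The highest of the other 7 animals, YS replicate 4 at 149, lay under the median of its array, so no fold is given against it. The probe set moved from a rank of 12843 or lower on those arrays to the 87th place on this one. The breed difference of 1.84 (SE 1.56, 95% interval −1.58 to 5.26, limma adjusted p = 0.614) rests on that animal alone. Without it the difference was −0.23, and the probe set then fell under the filter on low values and was not tested. The A1 probe set of the gene read 2.44, 142, 27.9 and 66.6 in KNP and 16.6, 36.9, 66.6 and 62.7 in YS, below the median of its array on every array, with KNP replicate 2 again the highest. The probe set set aside for its 4 CYP2C symbols, which include CYP2C36, read 39480 in KNP replicate 2 and 9583 to 19950 in the other 7 animals.

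**Figure D2:**
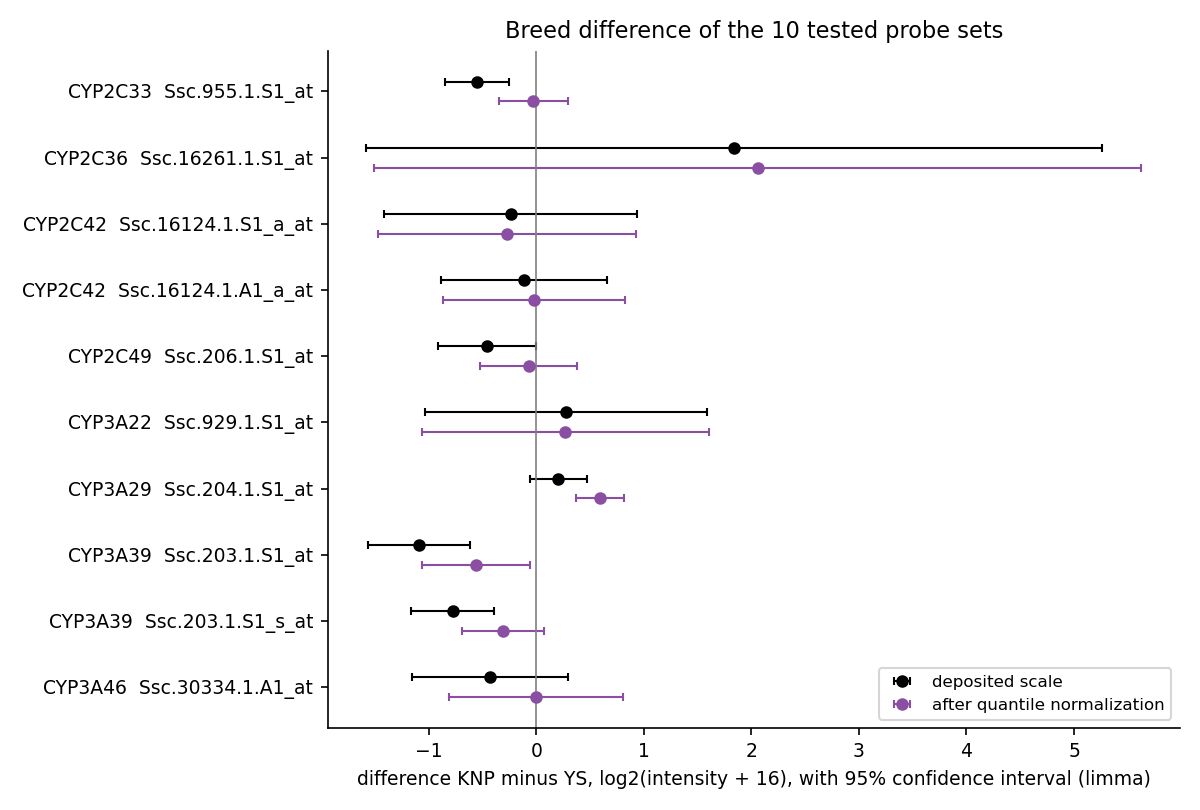
Difference between the breeds (KNP minus YS, log2 of intensity + 16, horizontal axis) for the 10 tested member probe sets, with 95% confidence intervals from limma, on the deposited scale (black) and after quantile normalization (purple). The bright members shift to the right after quantile normalization, CYP3A39 from −1.09 to −0.56 and CYP3A29 from 0.21 to 0.59, and the interval of CYP2C36 runs from −1.58 to 5.26.

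Whether members of a subfamily differed between the breeds by unequal amounts was asked with the ratio of their signals on the same array. A scaling factor common to an array cancels in this ratio, but a shift that depends on brightness, as seen above, does not. All 12 pairs within the subfamilies were compared by an exact permutation test (two-sided), for which the smallest p with 4 animals per breed is 0.0286. None passed after Benjamini-Hochberg adjustment over the 12 pairs, for which at least 7 pairs would have had to reach that smallest p, and 2 reached it. The log2 ratio of CYP3A29 to CYP3A39 was higher by 1.3 in KNP (−0.26 ± 0.61 against −1.55 ± 0.08, SD, n = 4 per breed) without overlap between the breeds (exact permutation p = 0.0286, adjusted p = 0.171). The ratio of CYP3A22 to CYP3A39 was higher by 1.37 (−3.75 ± 0.41 against −5.12 ± 1.5, SD, n = 4 per breed), also without overlap (exact permutation p = 0.0286, adjusted p = 0.171). Without YS replicate 4 this difference was 0.62 (exact permutation p = 0.0857, adjusted p = 0.514). Without KNP replicate 2 it was 1.22 (exact permutation p = 0.171, adjusted p = 0.686). The ratio of CYP3A29 to CYP3A39 differed by 1.02 without KNP replicate 2 (exact permutation p = 0.0286, adjusted p = 0.171). Without YS replicate 4 it differed by 1.27 (exact permutation p = 0.0571, adjusted p = 0.514). The ratio of CYP3A29 to CYP3A46 differed by 0.63, and by 0.95 without KNP replicate 2 (exact permutation p = 0.0286, adjusted p = 0.171). CYP3A22 and CYP3A39 lie in different ranges of brightness, with a mean log2 intensity of 11.1 and 15.5. After quantile normalization the breed differences were 0.27 for CYP3A22, 0.59 for CYP3A29 and −0.56 for CYP3A39. The ratio of CYP3A39 to CYP3A46 had an SD of 1.26 in KNP and 0.16 in YS and differed by −0.66 (exact permutation p = 0.400, adjusted p = 0.771), or by −0.07 without KNP replicate 2. In the CYP2C subfamily the ratio of CYP2C33 to CYP2C49 differed by −0.09 (exact permutation p = 0.771, adjusted p = 0.904), and the ratios with CYP2C36 followed KNP replicate 2, with an SD of 4.03 in KNP for CYP2C33 to CYP2C36 against 0.55 in YS.

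Among the 8 member genes, KNP replicate 2 was the highest of the 8 animals in CYP2C36, CYP2C42 and CYP3A46 and the lowest in CYP3A39 and CYP2C49. For comparison, it was the highest animal in 15.2% of all tested probe sets and the lowest in 16.7%. On the scale of intensity + 16 it had 4 probe sets at least 8-fold above the highest of the other 7 animals and 11 at least 8-fold below the lowest, a limit chosen after its values were seen. The same counts were 0 and 7 for KNP replicate 3, 0 and 2 for KNP replicate 4, and 0 and 0 for KNP replicate 1 and all YS animals. Its 4 high probe sets were those of CYP2C36, of the carbonyl reductases CBR2 (21871 against 41.9 to 90.1) and CBR1 (24267 against 101 to 1045), and 1 without a symbol.

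Among the 11 low ones were CYP2E1, which oxidizes ethanol and other small molecules, at 555 against 32831 to 53697 in the other 7 animals, and CYP2A19, at 162 against 3421 to 43879. They also held the flavin monooxygenase FMO5 (86.9 against 1312 to 4291), the steroid dehydrogenase HSD17B2 (66.3 against 1345 to 16403), the sulfotransferase SULT1A3 (177 against 4104 to 9978), the thiolase ACAA2 (375 against 9714 to 21168), ETNPPL (188 against 3658 to 9824) and the acute phase protein CRP (290 against 3749 to 28641). The other 3 had several symbols or none. The choice of these genes followed from their values. The hepatocyte markers of this animal had a mean log2 intensity of 15.3, inside the KNP range. Its actin ratio of 2.68 was the lowest of the 8 arrays.

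**Figure D3:**
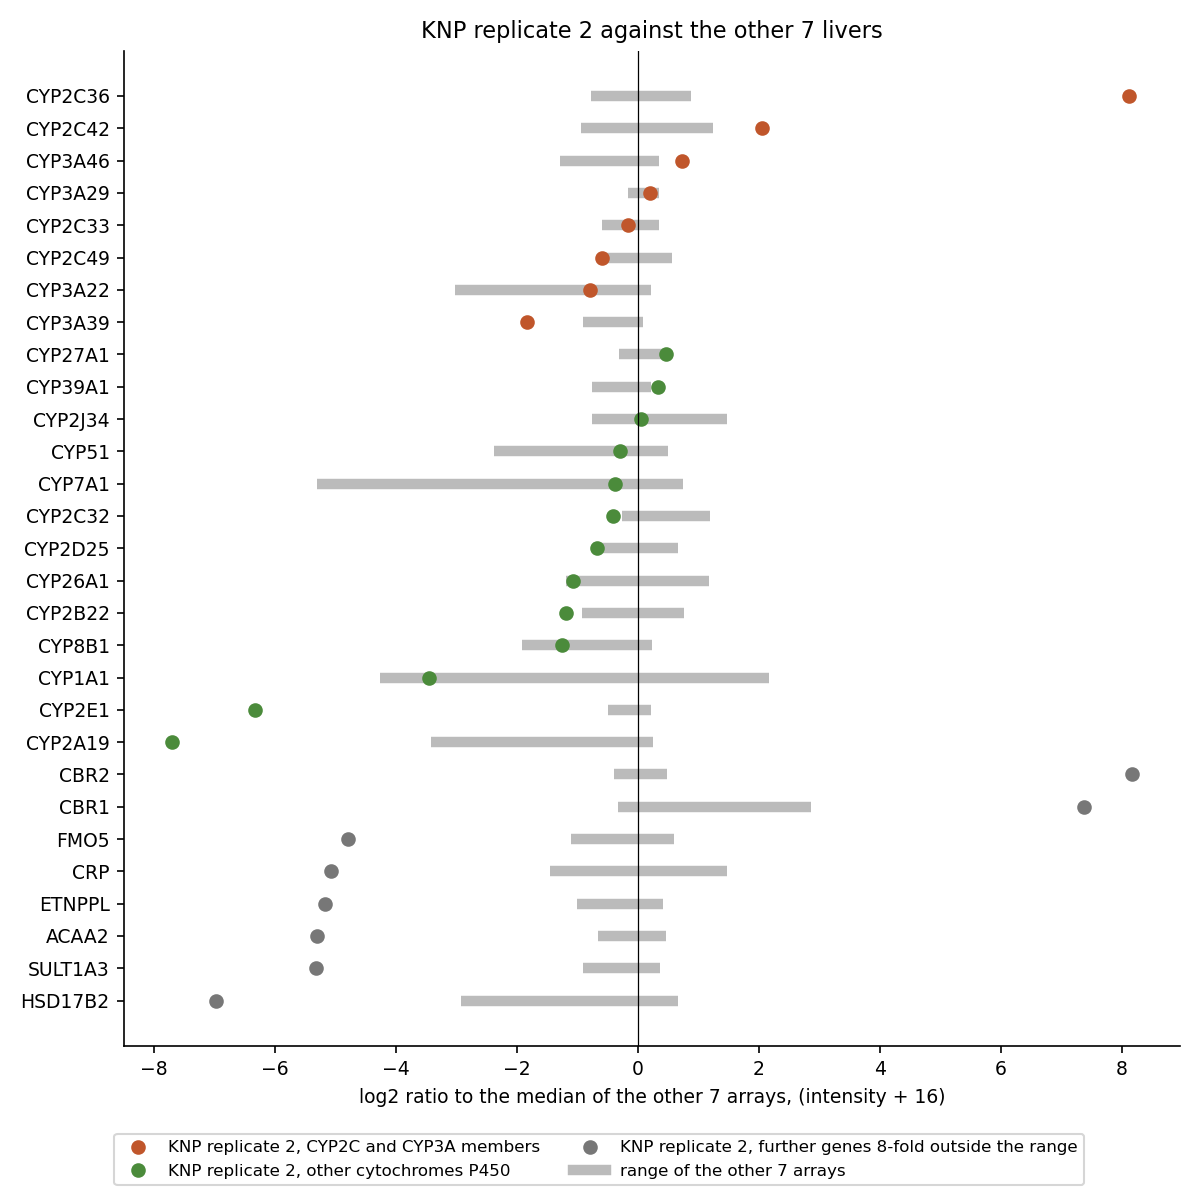
Log2 ratio of KNP replicate 2 to the median of the other 7 arrays (points, intensity + 16, horizontal axis), with the range of the other 7 arrays as a grey bar, for the 8 member genes (orange), other cytochromes P450 (green) and further genes at least 8-fold outside that range (grey points). CYP2C36 lies at 8.12 and CYP3A39 at −1.84, CYP2E1 at −6.33 and CYP2A19 at −7.69.

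The partners that supply electrons and haem to these enzymes did not pass the test. Of 12 tested genes for electron transfer, haem synthesis and haem breakdown, 0 were called by limma and 4 had an unadjusted p under 0.05, with a median difference of 0.12. POR, the reductase of all microsomal P450 enzymes, was at 3025 ± 709 in KNP and 2451 ± 671 in YS (difference 0.31, limma adjusted p = 0.552). CYB5A, cytochrome b5, was at 20970 ± 4220 and 31887 ± 2163, with no overlap between the breeds (difference −0.62, limma adjusted p = 0.0847, −0.26 after quantile normalization). PGRMC1, a haem-binding partner of P450 enzymes, showed −0.51 (limma adjusted p = 0.0678, −0.19 after quantile normalization). ALAS1, the rate-limiting enzyme of haem synthesis in liver, ran from 5060 to 12297 in KNP and from 2387 to 21132 in YS with its brightest probe set (difference −0.11, limma adjusted p = 0.945), while it turned to 0.088 without KNP replicate 2, and its other probe sets showed 0.52 and −0.27. YS replicate 4, the animal low in CYP3A22, was the lowest of all 8 in ALAS1.

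Of 13 tested regulators of drug metabolism 0 were called by limma, 3 had an unadjusted p under 0.05, and the median difference was 0.03 (0.094 without KNP replicate 2). NR1I2, the drug-sensing receptor PXR, was nearly level with 606 ± 127 in KNP and 594 ± 120 in YS (difference 0.03, SE 0.20, limma adjusted p = 0.968, and 0.11 without KNP replicate 2). HNF4A, a master factor of hepatocyte genes, was at 7138 ± 1694 and 9747 ± 693 (difference −0.48, limma adjusted p = 0.253), and its other probe set showed −0.08. NR3C1, the glucocorticoid receptor, showed 0.54 (limma adjusted p = 0.249) and RXRA −0.33 (limma adjusted p = 0.609). No probe set with the single symbol NR1I3 or CYP1A2 was found in the annotation used here.

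The other cytochromes P450 had lower means in KNP in 11 of 11 tested genes (10 after quantile normalization, where CYP27A1 turned to 0.12). Of all tested probe sets 51.1% had a lower mean in KNP, and 49.8% after quantile normalization. CYP2E1 and CYP2D25 have a mean log2 intensity of 14 to 15, where the median difference of all probe sets was −0.39. CYP27A1, CYP51 and CYP2A19 lie at 13 to 14, where it was −0.22. Of the 11 genes 0 were called by limma and 5 had an unadjusted p under 0.05. Their median difference was −0.86, or −0.79 after quantile normalization and −0.58 without KNP replicate 2. CYP1A1, which oxidizes aromatic hydrocarbons, showed −3.0 (limma adjusted p = 0.128) and CYP2D25 −0.66 (limma adjusted p = 0.146, −0.33 after quantile normalization). CYP2B22, the pig gene of the CAR-responsive CYP2B subfamily, ran from 619 to 1481 in KNP with replicate 2 lowest and from 740 to 2424 in YS (difference −0.42, limma adjusted p = 0.650), and its difference was −0.19 without that animal. CYP2E1 and CYP2A19 showed −1.92 and −3.35 with KNP replicate 2, and −0.42 and −1.87 without it.

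Of 17 tested genes of conjugation and drug transport, which act on the products of P450 enzymes, 3 fell, 0 rose and 14 did not pass, and the median difference was −0.33 (−0.16 after quantile normalization and −0.53 without KNP replicate 2). The glutathione transferase GSTA1 fell by 0.96, the microsomal glutathione transferase MGST1 by 0.61 and the glucuronosyltransferase UGT2B31 by 0.90. Their limma adjusted p lay between 0.0190 and 0.0467. All 3 are bright probe sets, and after quantile normalization they showed −0.38, −0.19 and −0.59 and were not called. The epoxide hydrolases EPHX1 and EPHX2 showed −0.95 and −0.73 (limma adjusted p = 0.0643 and 0.127). Of 8 tested genes known as PXR or CAR targets outside the members, GSTA1 fell and 7 did not pass. Among these the drug exporter ABCB1 showed −0.82 (limma adjusted p = 0.150) and −0.87 after quantile normalization. KNP replicate 2 was the lowest of the 8 animals in 4 of these 8 targets and the highest in 0.

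**Figure D4:**
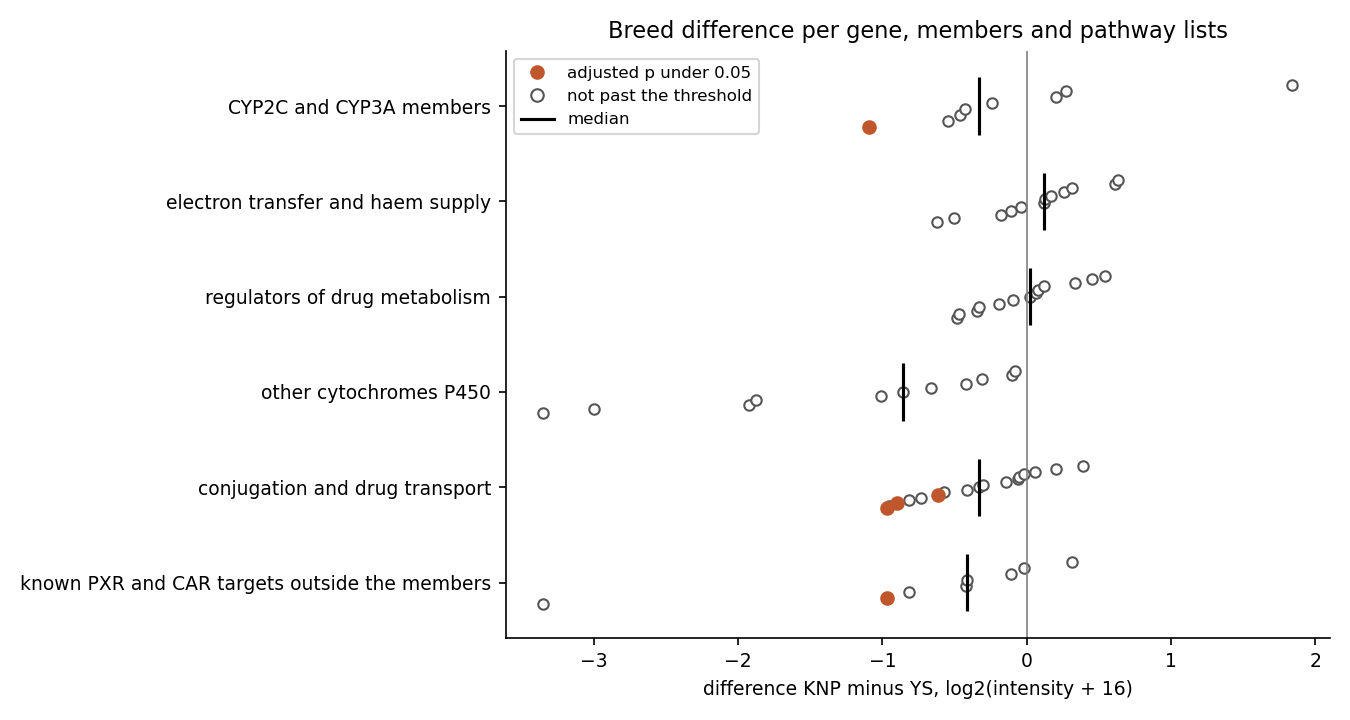
Difference between the breeds (KNP minus YS, log2 of intensity + 16, horizontal axis) for each tested gene, 1 row for the CYP2C and CYP3A members and 1 for each pathway list, with filled points past the threshold and a line at the median. The 11 other cytochromes P450 lie left of 0 on this scale (CYP27A1 turns to 0.12 after quantile normalization), and the filled points are CYP3A39, GSTA1 (in 2 lists), UGT2B31 and MGST1.

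Genes with a breed profile like that of the brightest members were listed by the root mean square difference between log2 profiles over the 8 arrays, each centred on its own mean, among 5415 genes. Nearest to CYP3A39 were LOC100522375 (0.21), the caspase CASP6 (0.23) and the acute phase protein ORM1 (0.24). ORM1 read 25958 ± 9217 in KNP and 51369 ± 4767 in YS (difference −1.06, limma adjusted p = 0.0717). Nearest to CYP2C33 were HAT1 (0.10), CSTF1 (0.10) and SAR1A (0.11). The arrays share a scaling and a breed each, so these distances describe the 8 arrays and carry no test.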

How the data were processed

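Liver RNA of 4 KNP and 4 YS pigs was hybridized to 1 porcine array per animal. The deposited values give a linear intensity for each probe set, and GCOS 1.3 is named in the submitters' processing notes. How signal and background were computed is not stated in the sources used here, and no detection calls were used. Probe sets were named from the array annotation: of 23999 that are not controls, 10069 had 1 symbol, 198 several and 13732 none. Values entered as log2(intensity + 16), unscaled, because array medians lay within 0.22 of each other, under the limit of 0.5. After the lower 40% by mean were left out, 14399 probe sets were fitted with limma 3.58.1 in R 4.3.3 (intensity trend, breed as the only term, Benjamini-Hochberg adjustment, threshold 0.05). A gene stands for its probe set with the highest mean. Array number, 4 per breed, limits precision.

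The members, lists and tests were chosen with earlier results of these data known. The text names all members; from each pathway list up to 6 genes past the threshold and the next 2 by p; 11 partner, regulator and P450 genes; and 3 genes of nearest profile to the brightest member of each subfamily. The animals far from the rest and the genes 8-fold outside the range in KNP replicate 2 were named after their values were seen. When changes were simulated over 14399 probe sets, the fit found 8% of 50 changed 1.5-fold and 42% of 50 changed 2-fold. It found 88% of 50 changed 4-fold and 100% of 50 changed 8-fold, and made 7 false calls. Whether these rates hold for the deposited arrays, with their breed shift in bright probe sets and KNP replicate 2, was not tested. Alternatives were pseudocounts of 1 and 64, quantile normalization, median centring, cyclic loess, no filter, the lower 60% left out, no trend, array weights, the replicate number as a block, omission of each animal, and the mean of a gene's probe sets.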

Additional observations from a re-analysis of the deposited data

Results flagged for a closer look

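In 24 groups of 4 animals (12 probe sets in 2 breeds, the one with several symbols included), 2 had an animal far from the other 3, by the gap to the nearest animal as a share of the group's range on the log2 scale against a critical value of 0.829; chance alone flags about 5% of groups. In CYP2C36 KNP replicate 2, at 24858, had a gap of 0.921 of the range, and in CYP3A22 YS replicate 4, at 382, had a gap of 0.989.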

How the results depend on the processing

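Against 149 probe sets, 1 member gene and 3 pathway genes called, the counts were 13, 0 and 0 after quantile normalization, 14, 0 and 0 with cyclic loess, 95, 0 and 1 with median centring, 35, 0 and 0 with no filter, 13, 0 and 0 with no trend and 8, 0 and 0 with the replicate block. In these limma fits 2 or 3 member genes and 12 to 20 pathway genes had an unadjusted p under 0.05. The member genes were not the same throughout. In the fit with 149 probe sets called they were CYP2C33, CYP2C49 and CYP3A39, all lower in KNP. After quantile normalization they were CYP3A39 (−0.56) and CYP3A29, which was higher in KNP (0.59). CYP2C33 (−0.03) and CYP2C49 (−0.07) were then not among them. The share of all probe sets under this limit was not computed. With each animal left out in turn the counts ran from 8 (without YS replicate 3) to 117 (without KNP replicate 4), from 0 to 1 and from 0 to 3; probe sets called were 50 and 73 without KNP replicates 1 and 3, and 13, 24 and 15 without YS replicates 1, 2 and 4. The call of CYP3A39 was kept in 6 of 18 alternatives (limma adjusted p from 0.0175 to 0.310), and its shared probe set passed with array weights (limma adjusted p = 0.0485). Of the 10 member probe sets tested 1 was called, so for the rest the side of the threshold had little room to change. A kept direction also covers large changes in size. After quantile normalization CYP3A46 went from −0.43 to −0.002, CYP2C33 from −0.55 to −0.03 and CYP2C49 from −0.46 to −0.07. Of 177 alternative values of member probe sets, 160 kept direction and side of the threshold, 12 lost the call, all in CYP3A39, 1 gained it and 4 reversed. Those 4 lie in CYP2C42, from −0.85 to 0.14 over the animals left out (0.14 without KNP replicate 3, 0.03 without YS replicate 1), its A1_a_at probe set, from −0.42 to 0.079 (the latter without YS replicate 2), and CYP3A22, from −0.48 (without YS replicate 4) to 0.53. The causes were not tested. CYP2C36 could not be fitted without KNP replicate 2 or with the lower 60% left out, nor CYP2C42 A1_a_at with the latter. The count of 0 pairs in the alternatives run for pairs says nothing about stability, since the smallest p nearly fixes it. Equal replicate numbers do not mark shared animals, since each animal belongs to 1 breed, so the block is not a pairing of the same animal. Deviations of same-numbered animals correlated at −0.020 to 0.051. Whether same-numbered arrays were processed together was not tested.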
